A study of Homo sapiens with 18 samples.

Results

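A set of 7 genes of plasminogen activation and of the serpin family was followed across 6 groups of fibroblast libraries: the activators PLAU and PLAT, the receptor PLAUR, the inhibitory serpins SERPINB2 and SERPINE2, and the serpins SERPINF1 and SERPINH1. They were chosen by name, with earlier results of these data known, and matched on the gene symbol. All 7 were found among the 57500 genes of the count table, and all 7 were among the 16994 genes that passed the filter on low counts. RNA-seq was made from IMR90 cells, a human fetal lung fibroblast line, with 3 libraries in each of the 6 groups. Prol are proliferating cells, and Sen (IR) are cells made senescent by ionizing radiation. Sen (IR) + CCCP were irradiated and then given CCCP, a mitochondrial uncoupler used here to drive removal of mitochondria by mitophagy. The last 3 groups were irradiated, given CCCP and then supplied with acetate, transfected with mitochondrial DNA (mtDNA), or both: Sen (IR) + CCCP + acetate, Sen (IR) + CCCP + mtDNA and Sen (IR) + CCCP + acetate + mtDNA. No group named in the labels was mock-transfected, so DNA and transfection reagent cannot be told apart, and no group received acetate with intact mitochondria. The study's methods give acetate repeatedly over days and mtDNA by a transfection late after irradiation. Between acetate and mtDNA, kind and length of treatment therefore cannot be told apart. The labels do not say whether the libraries of a group came from separate cultures. The study's legends give the samples of its expression heat maps as independent experiments, without naming libraries. The p-values measure the spread between these libraries.

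Plasminogen circulates as an inactive precursor and is cut to plasmin, a protease that digests fibrin and pericellular matrix, by the urokinase-type activator encoded by PLAU or the tissue-type activator encoded by PLAT. Urokinase works at the cell surface when bound to its receptor, the GPI-anchored product of PLAUR, and is held back by inhibitory serpins, which trap the protease in a covalent complex. SERPINB2 encodes plasminogen activator inhibitor type 2, much of which stays inside the cell, and SERPINE2 encodes protease nexin-1, which inhibits thrombin as well as the activators. SERPINF1 encodes PEDF and SERPINH1 the collagen chaperone HSP47 of the endoplasmic reticulum, and neither inhibits proteases. Several of these genes are known parts of the senescence-associated secretory phenotype, the mixture of secreted proteins released by senescent cells.

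The stretches before the start sites of 4 members are shown as a description, chosen by the entries at hand and not by how the genes changed. RefSeq promoter entries (build GRCh38.p14) were found for 5 of the 7 members, and those whose start matches the first base of the MANE transcript are printed. Each run is the 250 bases before the start, 5′ to 3′ on the gene's own strand. Capitals mark the motifs searched on both strands: TGANTCA (AP-1), GAANNTTC (the core of a heat shock element), TATAAA and the NF-kB motif. The PLAU stretch is chr10:73910882-73911131 on the plus strand, PLAUR chr19:43670170-43670419 on the minus strand, SERPINB2 chr18:63887455-63887704 on the plus strand and SERPINH1 chr11:75562003-75562252 on the plus strand.
PLAU: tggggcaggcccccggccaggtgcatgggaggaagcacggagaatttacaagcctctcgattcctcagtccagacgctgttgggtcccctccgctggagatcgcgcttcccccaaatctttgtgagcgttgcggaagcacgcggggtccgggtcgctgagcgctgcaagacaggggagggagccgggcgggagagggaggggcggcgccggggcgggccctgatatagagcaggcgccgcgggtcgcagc
PLAUR: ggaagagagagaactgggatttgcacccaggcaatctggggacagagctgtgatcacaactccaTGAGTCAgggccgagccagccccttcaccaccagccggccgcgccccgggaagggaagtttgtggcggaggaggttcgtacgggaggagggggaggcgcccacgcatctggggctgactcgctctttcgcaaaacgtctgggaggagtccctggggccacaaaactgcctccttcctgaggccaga
SERPINB2: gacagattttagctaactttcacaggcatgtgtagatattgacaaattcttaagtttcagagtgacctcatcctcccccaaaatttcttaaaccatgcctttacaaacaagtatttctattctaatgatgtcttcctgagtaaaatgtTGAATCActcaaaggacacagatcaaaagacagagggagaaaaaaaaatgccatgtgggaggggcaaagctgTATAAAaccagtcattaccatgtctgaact
SERPINH1: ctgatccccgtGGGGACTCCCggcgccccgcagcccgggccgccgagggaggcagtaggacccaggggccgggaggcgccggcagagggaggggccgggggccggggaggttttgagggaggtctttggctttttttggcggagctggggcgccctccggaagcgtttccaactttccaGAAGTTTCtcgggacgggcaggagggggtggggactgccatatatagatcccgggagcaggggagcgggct
The AP-1 letters stood 186 to 180 bases before the start of PLAUR and 102 to 96 bases before that of SERPINB2, which also held TATAAA 30 to 25 bases before its start. SERPINH1 held the heat shock core 71 to 64 bases before its start and an NF-kB match 239 to 230 bases before it. No searched motif lay in the PLAU window, which says only that these letters are not in it. Of 35114 promoter windows of the same length, 6.57% held TGANTCA, 5.78% GAANNTTC, 10.7% TATAAA and 5.21% the NF-kB motif. No motif match overlapped another, and a match is a description of letters, not of binding.

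Library totals ran from 24624886 to 46224280 counts with a median of 29620505.5. Replicates were compared by a chi-square of their counts over genes per degree of freedom, which is near 1 for sampling noise alone. Sen (IR) replicate 3 stood apart from the other libraries of its group (27.2 and 22.1, against 3.29 between those), and so did Sen (IR) + CCCP + acetate + mtDNA replicate 2 (28.2 and 24.7, against 3.33), while pairs in the other 4 groups ran from 2.77 to 7.69. The summed share of the 13 protein-coding mtDNA genes was 1.75% to 2.89% of counts in Prol and Sen (IR) and 0.0461% to 0.237% in the 12 CCCP libraries, the highest of these being Sen (IR) + CCCP + acetate + mtDNA replicate 2 (0.237%). MKI67, a marker of cycling cells, averaged 17.4 ± 0.630 TPM (SD, n = 3) in Prol, 4.77 ± 0.752 in Sen (IR), 12.7 ± 0.723 in Sen (IR) + CCCP and 10.4 ± 1.11 in Sen (IR) + CCCP + mtDNA, and 1.25 ± 0.173 in Sen (IR) + CCCP + acetate and 1.83 ± 0.490 in the combination. LMNB1, a lamin gene that falls in senescence, was at 3.89 to 4.81 TPM in the 6 acetate libraries against 17.3 to 21.5 TPM in the 6 other CCCP libraries. The part of these differences in the results below was not tested. All 10 fibroblast markers were detected at 1 TPM or more, with a summed level of 16070 to 18150 TPM in Prol, 10310 to 12340 in Sen (IR) and 4269 to 6027 in the 12 CCCP libraries. Of 5 epithelial markers, 1 reached 1 TPM in any library (EPCAM, 0.612 to 4.76), and the other 4 stayed at or below 0.211 TPM. Of 5 endothelial markers 2 did, TEK at 174 to 308 TPM and KDR at up to 1.61, with PECAM1, CDH5 and VWF at or below 0.308. Of 5 leukocyte markers CD68 (1.23 to 4.30 TPM) and CD14 (up to 2.36) did, with PTPRC, CD3E and LYZ at or below 0.172. Of 4 smooth muscle and pericyte markers 3 did: CSPG4 (22.0 to 64.5 TPM), RGS5 (1.69 to 7.90) and DES (up to 1.02). The part of these marker levels in the results was not tested. In bulk RNA, fewer cells of a kind and less RNA per cell cannot be told apart.

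Counts of members that passed edgeR's quasi-likelihood test at a Benjamini-Hochberg adjusted p under 0.05, with counts scaled by TMM, are set beside the share of all 16994 genes called in that direction. Because the members were chosen with earlier results of these data known, these shares are background and not a test of the set. In Sen (IR) against Prol, 4 members rose (26.7% of all genes) and 2 fell (29.9%). In Sen (IR) + CCCP against Sen (IR), none rose (34%) and 6 fell (31.3%). Against Prol the same depleted libraries had 3 members higher (35.1%) and 3 lower (34.1%). Acetate given to depleted cells raised 6 members (28.8%) and lowered 1 (28.3%). Transfected mtDNA raised 2 (10.7%) and lowered none (7.4%). The combination raised 6 (30.3%) and lowered 1 (31.4%) against Sen (IR) + CCCP. Against acetate alone the combination had no member called in either direction (6.57% of all genes higher, 6% lower). In that comparison 1 member had a p under 0.05 before adjustment, and a DESeq2 Wald test called 1. Against mtDNA alone the combination had 5 members higher (27.4%) and 1 lower (29.9%). Against Sen (IR), 3 members were higher (33.2%) and 2 lower (32.7%) with acetate, 1 higher (35%) and 5 lower (32.5%) with mtDNA, and 3 higher (32.2%) and 2 lower (34.7%) with the combination. The interaction of acetate and mtDNA, which asks whether the combination departs from the sum of the log2 effects, called no member (0.0765% of all genes positive, 0.583% negative). For the interaction 1 member had an unadjusted p under 0.05 and the DESeq2 Wald test called none. The comparisons of treated with untreated depleted cells share the 3 Sen (IR) + CCCP libraries.

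**Figure D1:**
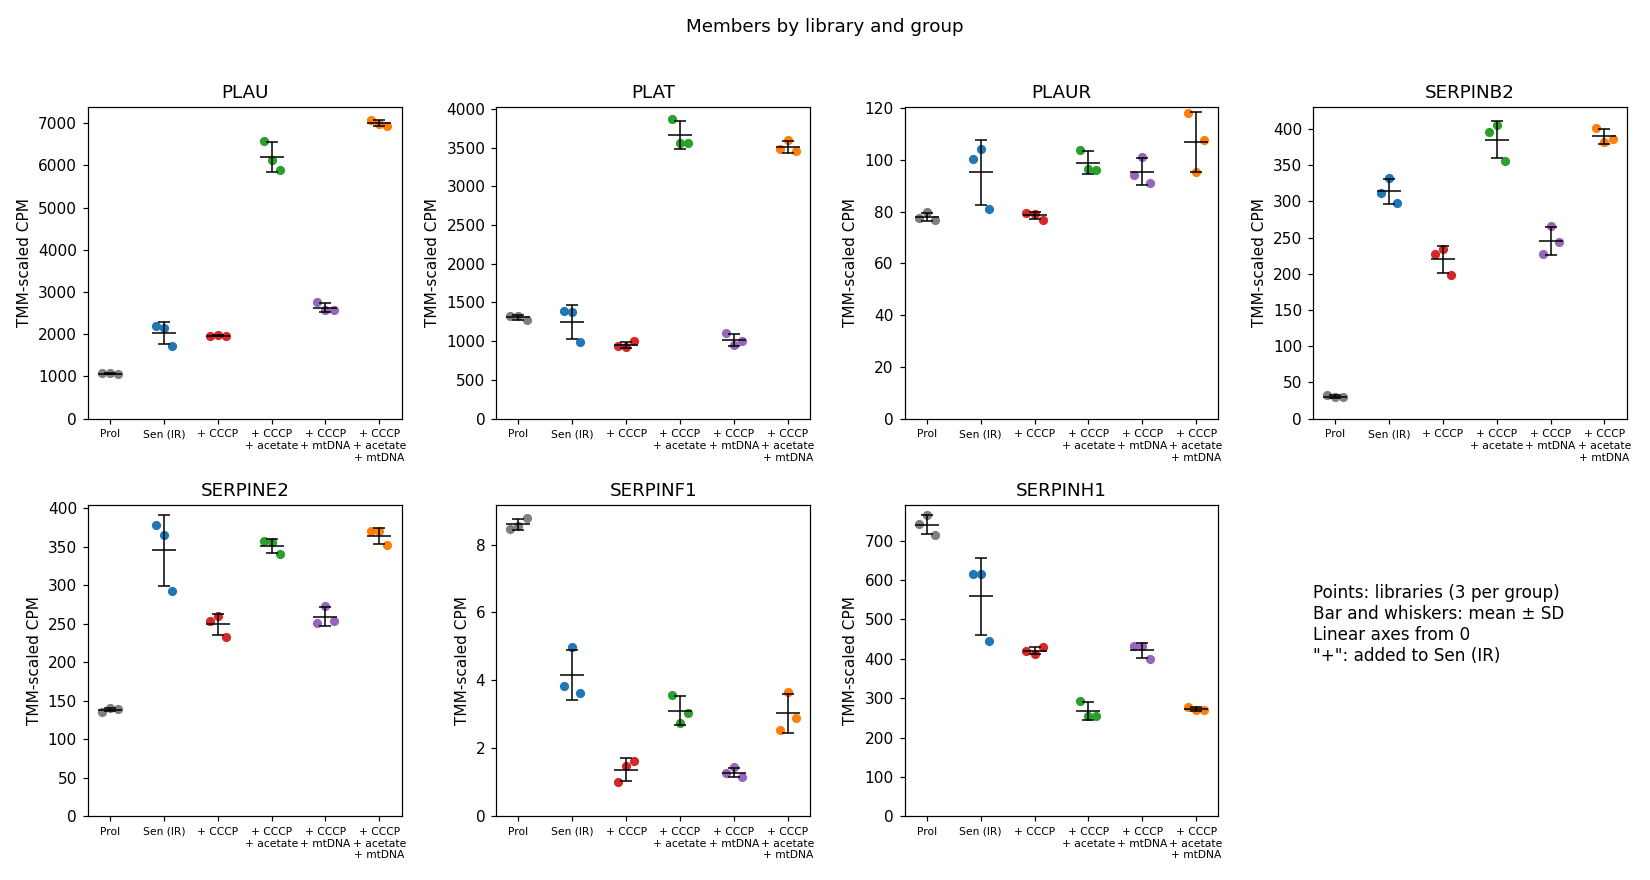
Each panel shows 1 gene, with the 6 groups on the x axis and TMM-scaled CPM on a linear y axis from 0; points are libraries and bars give mean ± SD (n = 3). PLAU and PLAT stand apart in the 6 libraries that received acetate, SERPINB2 is lowest in Prol, and SERPINH1 is lowest in the acetate libraries.

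PLAU (ENSG00000122861, chr10:73909177-73917496 on the plus strand, GRCh38, 11 exons in its MANE transcript) was the most abundant member per length in every group. Its level rose from 1360 ± 40.0 TPM (SD, n = 3) in Prol to 10516 ± 530 TPM with acetate and 11588.6 ± 242 TPM with acetate and mtDNA. The TMM-scaled CPM values were 1069, 1074 and 1051 in Prol, 2194, 2156 and 1725 in Sen (IR), and 1965, 1972 and 1964 in Sen (IR) + CCCP. In scaled CPM the irradiated libraries therefore lay above every Prol library, and the depleted libraries lay within the range of Sen (IR). In TPM the depleted libraries (3562 to 3583) lay above every Sen (IR) library (2364 to 2944). The scaled CPM values were 6587, 6123 and 5893 with acetate, 2759, 2573 and 2564 with mtDNA, and 7078, 6983 and 6929 with the combination. No acetate library overlapped a library without acetate, and every mtDNA library lay above every untreated depleted library.

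On the log2 scale of the fit, PLAU was higher by 0.93 ± 0.0662 (SE) in Sen (IR) than in Prol (1.90-fold, adjusted p = 9.73e-11). CCCP gave -0.04, with a 95% interval of -0.18 to 0.09 (adjusted p = 0.596), under TMM scaling. Acetate raised PLAU 3.15-fold over Sen (IR) + CCCP (log2 1.66 ± 0.0672, adjusted p = 8.85e-15), and over 15 alternative settings the log2 change stayed between 1.53 and 1.72. Transfected mtDNA raised it 1.34-fold (log2 0.42 ± 0.0657, adjusted p = 7.45e-05). The combination stood 3.46-fold above intact Sen (IR) (log2 1.79 ± 0.0675, adjusted p = 1.01e-15). Adding mtDNA to acetate gave a further log2 difference of 0.17 with an interval of 0.04 to 0.31 (adjusted p = 0.0867), and the call depended on the setting: it passed with DESeq2 size factors (adjusted p = 0.0416), the DESeq2 Wald test (0.0222) and no filter on low counts (0.0194). Its interaction term was -0.25, with an interval of -0.44 to -0.05 (adjusted p = 0.287), and it passed without the low-count filter (adjusted p = 0.0367). PLAU shares 915 exonic bases with C10orf55 on the opposite strand, and the sources used here do not give the strand setting for these libraries; C10orf55 counts came to 0.18% of PLAU counts.

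PLAT (ENSG00000104368, chr8:42174718-42207709 on the minus strand, GRCh38) was the most abundant member per length after PLAU in all 6 groups. Its scaled CPM values were 1322, 1330 and 1273 in Prol, 1383, 1371 and 995 in Sen (IR), and 935, 922 and 997 in Sen (IR) + CCCP. The values with acetate were 3874, 3556 and 3559, with mtDNA 1102, 949 and 997, and with the combination 3484, 3593 and 3449. The 6 acetate libraries stood clear of the other 12, which lay between 922 and 1383. Radiation gave PLAT a log2 difference of -0.07 (interval -0.24 to 0.11, adjusted p = 0.528). Acetate raised it 3.85-fold (log2 1.95 ± 0.0877, adjusted p = 4.59e-14), the largest change of the 7 members in that comparison, and 2.93-fold over Sen (IR) (adjusted p = 6.93e-13). The alternatives gave log2 values of 1.82 to 2.00 for acetate against Sen (IR) + CCCP. For mtDNA alone the log2 difference was 0.10 (interval -0.08 to 0.27, adjusted p = 0.502), and for mtDNA on top of acetate it was -0.06 (interval -0.24 to 0.11, adjusted p = 0.699).

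PLAUR (ENSG00000011422, chr19:43646095-43670547 on the minus strand) encodes the urokinase receptor. Its level lay between 64.0 and 130 TPM over the 18 libraries. Its scaled CPM values were 77.6, 79.9 and 76.8 in Prol, 101, 104 and 80.9 in Sen (IR), and 79.6, 79.2 and 76.9 in Sen (IR) + CCCP. With acetate they were 104, 96.6 and 95.9, with mtDNA 94.0, 101 and 91.2, and with the combination 118, 95.2 and 108. In scaled CPM the Sen (IR) libraries lay above the depleted ones, by a small margin at replicate 3. All 9 supplemented libraries lay above the depleted ones. In TPM the order of the first 2 was reversed, with Sen (IR) at 73.4 to 92.26 and Sen (IR) + CCCP at 92.34 to 96.03. PLAUR rose 1.22-fold in Sen (IR) (log2 0.29 ± 0.0774, adjusted p = 0.00329), 1.26-fold with acetate (0.33 ± 0.0767, adjusted p = 0.000863), 1.22-fold with mtDNA (0.28 ± 0.0772, adjusted p = 0.0134) and 1.36-fold with the combination (0.45 ± 0.077, adjusted p = 3.24e-05). The rise with mtDNA was lost without mtDNA replicate 2 (log2 0.24, adjusted p = 0.0588). On log2(TPM + 1) it was 0.21 (adjusted p = 0.0961). The combination differed from Sen (IR) by 0.17 (interval 0.01 to 0.33, adjusted p = 0.0567), and the outcome depended on the setting: the 15 alternatives gave 0.07 to 0.46, and 6 of them kept the outcome. Without combination replicate 2, which stood apart from its group, the value was 0.28 (adjusted p = 0.00176), and without Sen (IR) replicate 3 it was 0.07 (adjusted p = 0.373).

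SERPINB2 (ENSG00000197632, chr18:63871692-63903888 on the plus strand) showed the largest change of all members between senescent and proliferating cells. Its scaled CPM values were 32.3, 29.2 and 29.3 in Prol, 311, 332 and 297 in Sen (IR), and 227, 234 and 199 in Sen (IR) + CCCP. With acetate they were 395, 405 and 356, with mtDNA 227, 266 and 243, and with the combination 402, 382 and 386. Every irradiated library lay above every Prol library. In scaled CPM the acetate and combination libraries were the highest, the Sen (IR) libraries came next, and the mtDNA libraries overlapped the untreated depleted ones. In TPM the Sen (IR) libraries (438 to 477) overlapped the untreated depleted ones (387 to 455). SERPINB2 rose 10.4-fold in Sen (IR) (log2 3.37 ± 0.0755, adjusted p = 4.94e-19), from 41.5 ± 2.24 to 454 ± 20.4 TPM (SD, n = 3). In depleted cells it was still 7.27-fold above Prol (log2 2.86 ± 0.0744, adjusted p = 2.7e-18). Acetate raised it 1.75-fold (log2 0.81 ± 0.067, adjusted p = 9.89e-10), to a level 1.23-fold above intact Sen (IR) (log2 0.30 ± 0.0665, adjusted p = 0.000474). The mtDNA difference was 0.16 (interval 0.02 to 0.30, adjusted p = 0.113) and passed without mtDNA replicate 1 (0.22, adjusted p = 0.0464). The gene shares 547 exonic bases with ENSG00000289724 on the same strand, for which no count was used here.

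SERPINE2 (ENSG00000135919, chr2:223975045-224039318 on the minus strand) had a like order of groups at a smaller amplitude. The scaled CPM values were 136, 140 and 139 in Prol, 379, 365 and 292 in Sen (IR), and 253, 260 and 233 in Sen (IR) + CCCP. With acetate they were 357, 356 and 341, with mtDNA 251, 273 and 254, and with the combination 370, 370 and 352. Prol was the lowest group with no overlap, and the acetate libraries lay within the range of Sen (IR). SERPINE2 rose 2.49-fold in Sen (IR) (log2 1.32 ± 0.0703, adjusted p = 8.18e-13) and 1.41-fold with acetate (log2 0.50 ± 0.0687, adjusted p = 2.19e-06). Between acetate-treated and intact senescent cells the difference was 0.02 under TMM, with an interval of -0.12 to 0.17 (adjusted p = 0.767). That outcome depended on the scaling. With edgeR on library totals alone the difference was 0.17 (adjusted p = 0.0211), and with limma on log2(TPM + 1) it was 0.36 (adjusted p = 0.000185). The median of all genes was 0.14 and 0.26 in these fits. For mtDNA alone the SERPINE2 difference was 0.06 against Sen (IR) + CCCP (interval -0.09 to 0.20, adjusted p = 0.642).

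SERPINF1 (ENSG00000132386, chr17:1762029-1777565 on the plus strand) was the rarest member, with 35 to 338 counts per library, so its errors were the widest. The scaled CPM values were 8.45, 8.55 and 8.78 in Prol, 3.85, 4.99 and 3.62 in Sen (IR), and 1.00, 1.49 and 1.63 in Sen (IR) + CCCP. With acetate they were 3.56, 2.73 and 3.04, with mtDNA 1.27, 1.44 and 1.16, and with the combination 2.53, 3.65 and 2.91. Prol was the highest group without overlap, and the untreated and mtDNA-treated depleted libraries were together the lowest. SERPINF1 fell 2.09-fold in Sen (IR) (log2 -1.06 ± 0.146, adjusted p = 2.17e-06) and a further 3.02-fold with CCCP (log2 -1.59 ± 0.18, adjusted p = 7.23e-08). It was the member whose fall with CCCP passed the test under all 15 alternatives, with log2 values of -1.71 to -0.91. Acetate raised it 2.26-fold (log2 1.17 ± 0.182, adjusted p = 9.76e-06). Its remaining deficit against Sen (IR) was -0.42 (adjusted p = 0.0232), a call lost without Sen (IR) replicate 2 (-0.25, adjusted p = 0.191), acetate replicate 2 (-0.31, adjusted p = 0.137) or acetate replicate 3 (-0.38, adjusted p = 0.0764), and with library totals alone (-0.28, adjusted p = 0.11). On log2(TPM + 1) it was -0.07 (adjusted p = 0.675), and 9 of 15 alternatives kept the call.

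SERPINH1 (ENSG00000149257, chr11:75562056-75572783 on the plus strand), the collagen chaperone, was the only member lowered by acetate. The scaled CPM values were 743, 764 and 715 in Prol, 615, 616 and 444 in Sen (IR), and 421, 411 and 431 in Sen (IR) + CCCP. With acetate they were 293, 256 and 254, with mtDNA 433, 432 and 399, and with the combination 278, 269 and 269. The order ran from Prol down to the acetate groups, and the 6 acetate libraries were the lowest 6. SERPINH1 fell 1.33-fold in Sen (IR) (log2 -0.41 ± 0.0846, adjusted p = 0.000289) and 1.57-fold with acetate (log2 -0.65 ± 0.0851, adjusted p = 8.96e-07). Acetate-treated cells held 2.09-fold less than intact senescent cells (log2 -1.06 ± 0.0856, adjusted p = 3.11e-10). For mtDNA alone the difference was 0.00, with an interval of -0.17 to 0.18 (adjusted p = 0.993). The changes with acetate kept their sign and their call in all 15 alternatives (-0.78 to -0.59).

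**Figure D2:**
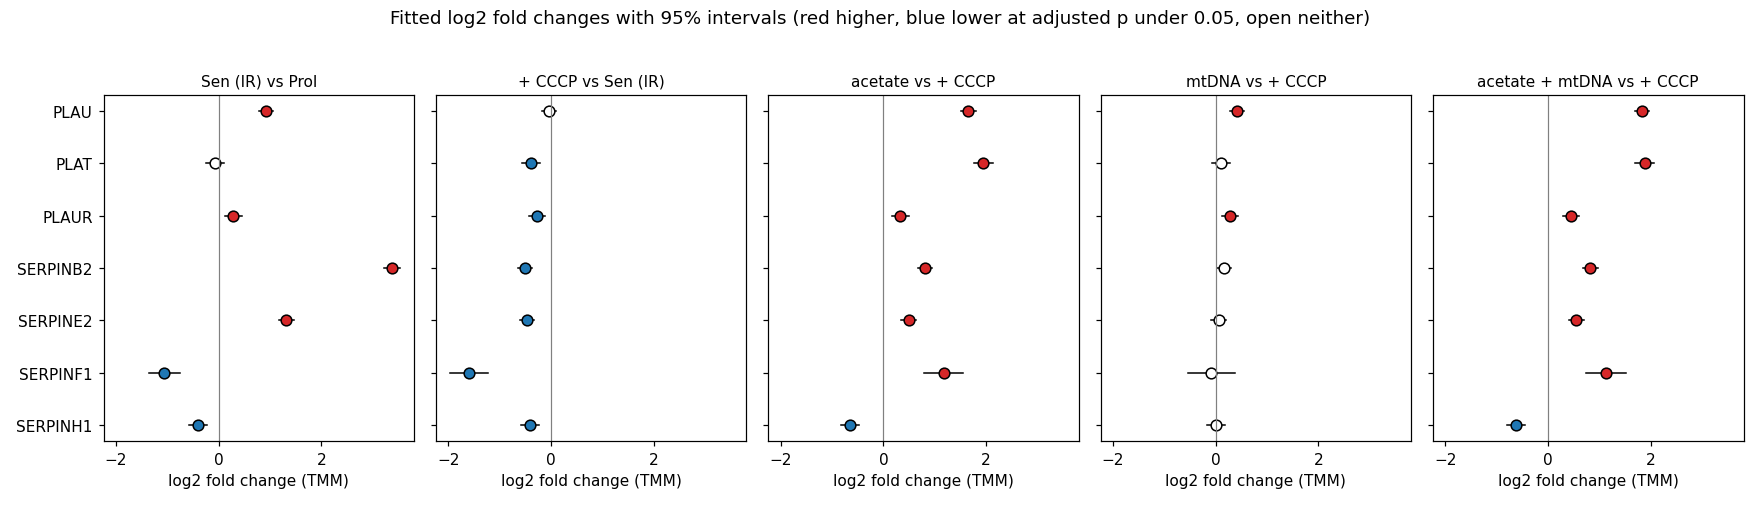
The log2 fold change of each member (x axis) is plotted with its 95% interval for 5 comparisons, with red points higher and blue points lower at an adjusted p under 0.05 and open points neither. SERPINB2 has the largest change in Sen (IR) against Prol (3.37), and PLAT (1.95) and PLAU (1.66) have the largest with acetate.

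The falls with CCCP depended on how libraries were scaled. TMM factors were 0.917 to 0.969 in Sen (IR) and 1.11 to 1.13 in Sen (IR) + CCCP. The median log2 difference of all 16994 genes was 0.03 under TMM, 0.29 with library totals alone and 0.35 on log2(TPM + 1), and 52.1%, 70.6% and 78.8% of the called genes were higher. Under TMM, PLAT (-0.39 ± 0.085, adjusted p = 0.000329), PLAUR (-0.28 ± 0.0771, 0.00333), SERPINB2 (-0.51 ± 0.0669, 6.45e-07), SERPINE2 (-0.47 ± 0.0688, 3.07e-06) and SERPINH1 (-0.41 ± 0.0847, 0.000224) fell, each given with its log2 change ± SE and adjusted p. On log2(TPM + 1) none of these 5 was called, with values of 0.05, 0.16, -0.09, -0.04 and 0.04, and PLAU was higher (0.39, adjusted p = 0.000457). Relative to the median gene, all 7 members lay lower under TMM, DESeq2 size factors and library totals, and 6 of 7 on log2(TPM + 1), where PLAU was at 0.04. SERPINF1 lay 1.62 below the median gene under TMM and 1.27 below on log2(TPM + 1). For acetate against Sen (IR) + CCCP the medians of all genes were 0.01, -0.12 and -0.07, and the same 6 members rose and SERPINH1 fell under all 3 scalings. The share of higher calls among all genes in that comparison was 50.5% under TMM, 37.1% with totals and 39.5% on log2(TPM + 1).

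**Figure D3:**
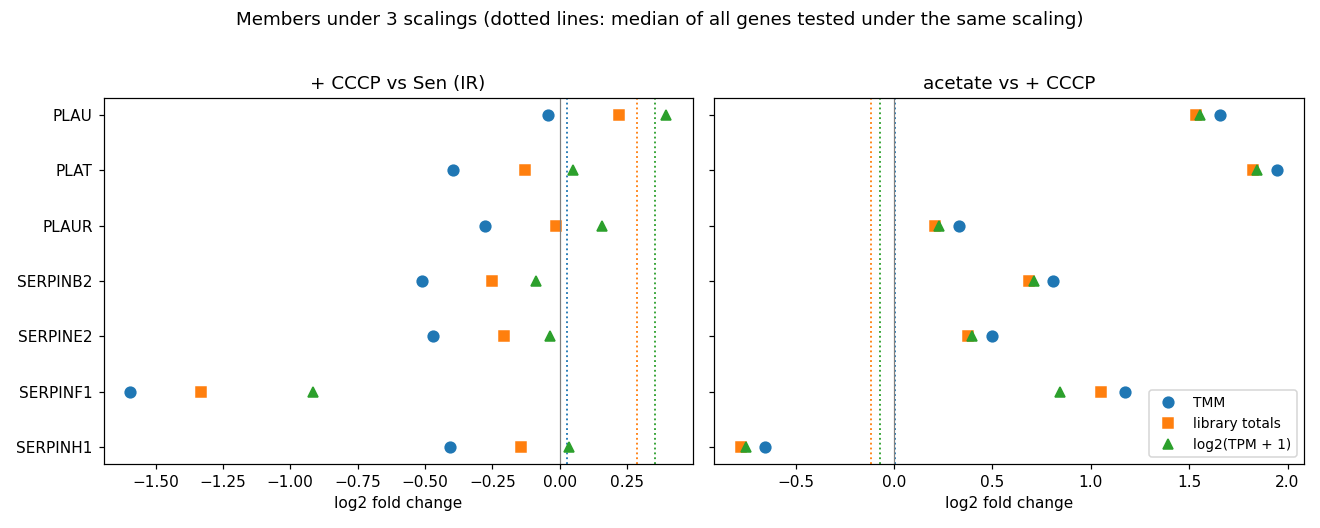
Log2 fold changes of the 7 members (x axis) for CCCP (left) and acetate (right) under 3 scalings, with dotted lines at the median of all genes tested under the same scaling. In the left panel the points of each gene shift together with the dotted lines, and in the right panel the 3 points of each gene lie on the same side of 0.

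Sen (IR) replicate 3 was the lowest of its group for all 7 members and had the highest mtDNA share of the group (2.64% against 1.75% and 1.94%). Without it the members called with CCCP were 7 in place of 6, as PLAU passed (-0.14, adjusted p = 0.00421), and those called in Sen (IR) against Prol stayed 4 higher and 2 lower. Without combination replicate 2, PLAUR was called against Sen (IR) and against mtDNA alone (log2 0.26, adjusted p = 0.00435), and no other call on a member changed. Over the 35 pairs of neighbours in the order of the 6 groups, 17 differed at an adjusted p under 0.05. In that order the acetate group and the combination were neighbours for all 7 members and differed for none.

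Levels of different genes were compared per length, in TPM. In Prol the order was PLAU (1360 ± 40.0 TPM), PLAT (745 ± 30.0), SERPINH1 (568 ± 29.1), PLAUR (66.0 ± 2.62), SERPINE2 (58.7 ± 1.83), SERPINB2 (41.5 ± 2.24) and SERPINF1 (10.6 ± 0.229). With acetate SERPINB2 was the most abundant member after PLAU and PLAT, at 702 ± 48.7 TPM, above SERPINH1 at 272 ± 20.1 and SERPINE2 at 198 ± 5.34, and below PLAT at 2769 ± 113. PLAU was the highest member, PLAT the next and SERPINF1 the lowest in all 6 groups. SERPINB2 moved from near the bottom of the order in Prol to a level near SERPINH1 in the irradiated groups without acetate. SERPINB2 and SERPINH1 were at 454 ± 20.4 and 452 ± 74.9 TPM in Sen (IR). They were at 429 ± 36.4 and 459 ± 10.8 in Sen (IR) + CCCP, and at 455 ± 36.5 and 437 ± 18.7 with mtDNA. With acetate, alone or with mtDNA, SERPINB2 ranked next after the activators, at a much lower level (693 ± 27.4 TPM against 2590 ± 13.6 for PLAT in the combination).

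The genes around the members were described with 4 lists, and genes said below to have risen or fallen passed the same quasi-likelihood test (values are log2 changes ± SE under TMM). Of all 16994 genes tested, 26.7% rose and 29.9% fell in Sen (IR) against Prol (median log2 change -0.01). With CCCP these shares were 34% and 31.3% (median 0.03), with acetate 28.8% and 28.3% (median 0.01) and with mtDNA 10.7% and 7.4%. The counts of each list under TMM are to be read beside these shares. Over all genes the median with CCCP was 0.29 with library totals alone and 0.35 on log2(TPM + 1). With acetate these medians were -0.12 and -0.07. Of 30 other genes of plasminogen activation and its regulation, 20 passed the low-count filter, and PLG, which encodes plasminogen itself, did not. In Sen (IR) against Prol, 5 of the 20 rose and 10 fell, with a median log2 change of -0.22 against -0.01 over all genes tested. TFPI2, a Kunitz-type inhibitor that blocks plasmin, rose (log2 1.90 ± 0.0879), while the endocytic receptor SORL1 fell (-1.39 ± 0.11) and so did A2M, a broad protease trap (-1.23 ± 0.148). With CCCP 6 rose and 10 fell, with a median of -0.33 against 0.03. F2RL1, a protease-activated receptor (-1.94 ± 0.111), and MRC2, which binds collagen and associates with the urokinase receptor (-1.29 ± 0.085), fell, and TFPI2 rose (2.16 ± 0.0867). This median was 0.07 on log2(TPM + 1), against 0.35 over all genes tested, with 9 called higher and 8 lower. With acetate 11 rose and 5 fell, with a median of 0.38 against 0.01. MRC2 (1.48 ± 0.0851), F2RL1 (1.40 ± 0.111) and THBD, which encodes thrombomodulin (1.49 ± 0.269), rose, and TFPI2 fell (-1.30 ± 0.0843). THBD averaged no more than 3.81 TPM in any group. With mtDNA 4 of the 20 rose and 1 fell, THBD having the highest value (1.38) and the tissue factor gene F3 the one that fell (-0.27).

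Of 31 other serpin genes, 11 passed the filter. In Sen (IR) against Prol 5 rose and 3 fell, among them SERPINI1, which encodes neuroserpin, an inhibitor of tissue-type activator (2.63 ± 0.109), and SERPINB9, the granzyme B inhibitor (-1.44 ± 0.0898). With CCCP 3 rose and 8 fell, including SERPING1, which encodes C1 inhibitor (-1.79 ± 0.0819). With acetate 4 rose and 5 fell, and SERPING1 rose most (2.23 ± 0.0816), from 29.7 ± 1.21 to 130 ± 5.24 TPM. SERPINI1 was lower with acetate (-0.62 ± 0.0985) where SERPINB2 and SERPINE2 were higher. The list medians were 0.14, -0.72 and -0.09 in these comparisons under TMM, against -0.01, 0.03 and 0.01 over all genes tested. With CCCP the median was -0.46 with library totals alone and -0.26 on log2(TPM + 1), where 4 were higher and 6 lower. With acetate it was -0.21 and -0.18, with 4 higher and 6 lower under both.

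The 24 genes of collagen folding in the endoplasmic reticulum, where HSP47 works, were described beside SERPINH1. In Sen (IR) against Prol 11 rose and 2 fell (median 0.21), while SERPINH1 fell; PLOD2, a lysyl hydroxylase, had the highest value (0.95 ± 0.0618). With CCCP 23 of 24 fell and 1 rose (median -1.16 against 0.03 for all genes; 18 fell and 3 rose on log2(TPM + 1), median -0.71). KDELR3, a retrieval receptor for resident proteins (-2.63 ± 0.0934), and HSP90B1, the chaperone GRP94 (-2.01 ± 0.0963), fell most. With acetate 6 rose and 10 fell (median -0.08), from TXNDC5 (-1.10 ± 0.187) to MIA3, which helps load procollagen into carriers (0.58 ± 0.0503), and SERPINH1 at -0.65 lay at the low end of the list. With library totals alone 4 rose and 14 fell (median -0.20), and on log2(TPM + 1) 4 rose and 12 fell (median -0.18). The 17 heat shock genes had 13 rises and no fall in Sen (IR) against Prol (median 0.30 under TMM), led by HSPA1B (0.64 ± 0.0907), and the 4 not called lay between -0.20 and -0.01. With CCCP 3 rose and 11 fell, HSPB1 falling most (-1.95 ± 0.0979). The median moved from -0.19 under TMM to 0.24 on log2(TPM + 1), where 9 rose and 5 fell. The median of all genes moved from 0.03 to 0.35. With acetate 4 rose and 8 fell (median -0.09 under TMM), against 2 and 8 with library totals alone (median -0.21) and 2 and 8 on log2(TPM + 1) (median -0.16).

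**Figure D4:**
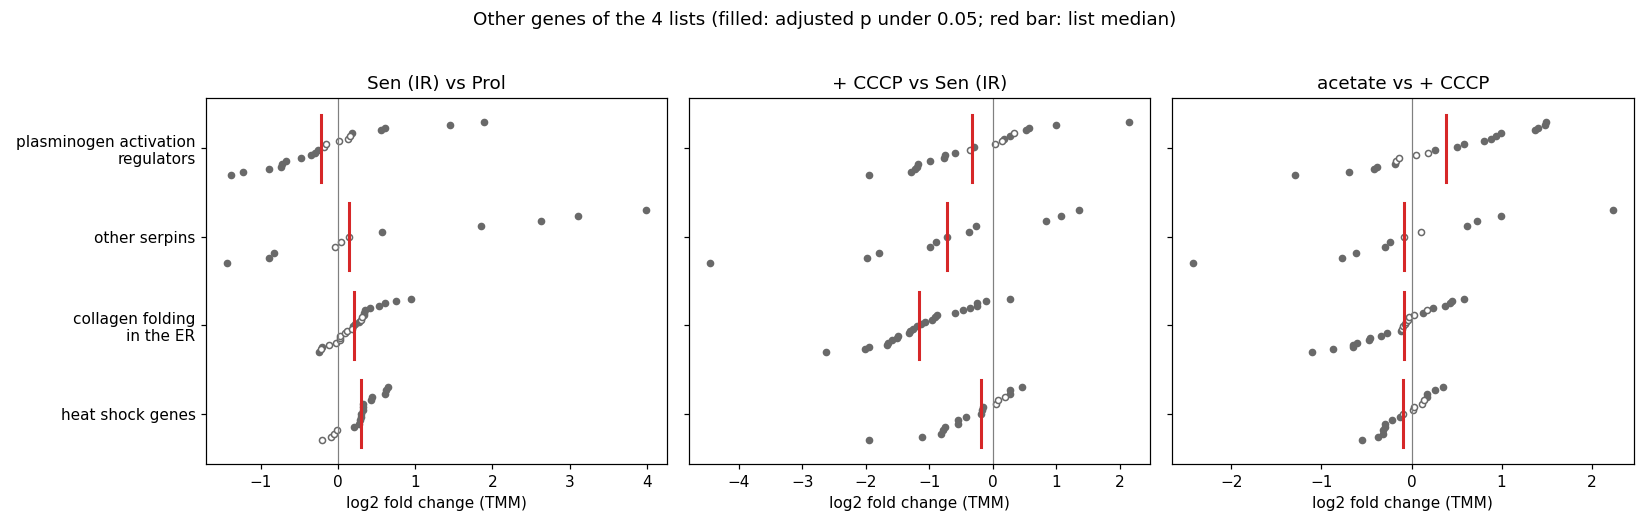
Each point is a gene of 1 of the 4 lists, placed by its log2 fold change under TMM (x axis) in 3 comparisons; filled points have an adjusted p under 0.05 and the red bar is the list median. The collagen folding list has its median at -1.16 in the CCCP panel, and the regulators have theirs at 0.38 in the acetate panel.

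The genes most like each member over the 18 libraries were found by Pearson correlation of log2 CPM, as a description. The 18 libraries fall into 6 groups, so these values mostly restate group differences. For PLAU they were DUSP6, a phosphatase that acts on ERK (r = 0.99), TMEM206 (0.988) and CCPG1 (0.988). For PLAT they were MCAM (0.991), SLC44A1 (0.983) and TBC1D2B (0.983). PLAUR had weaker matches: DHX16 (0.914), PACSIN2 (0.902) and ALDH9A1 (0.898). For SERPINB2 they were KYNU, a kynurenine pathway enzyme (0.992), SERINC3 (0.988) and CD44, the hyaluronan receptor (0.984). For SERPINE2 they were NRG1 (0.984), SYAP1 (0.979) and the processed pseudogene CKS1BP1 (0.977), whose reads may come from its parent gene. For SERPINF1 they were FAM114A1 (0.981), SEPTIN2 (0.979), whose symbol had become a date in the count table, and ADAMTSL4 (0.979). For SERPINH1 they were GPC1 (0.992), UGDH, which makes a sugar precursor of glycosaminoglycans (0.983), and TUBA1B (0.981). No gene was among the 3 closest of more than 1 member.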

How the data were processed

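RNA-seq of 18 IMR90 libraries in 6 groups of 3 was analysed. The authors deposited raw counts per gene, made from trimmed reads (Trimmomatic 0.36) aligned to GRCh38 with STAR 2.5.2b and counted over exons, uniquely mapped reads only, with featureCounts (Subread 1.5.2). They also deposited TPM values, which were used to compare levels between genes. The Ensembl release was not given in the sources used here, and the strand setting of these libraries was not settled by them. Groups came from the labels.

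Counts of 57500 genes, 485 of them without a symbol, were filtered with filterByExpr, and 16994 were tested with edgeR 4.0.16 (R 4.3.3; limma 3.58.1): TMM, quasi-likelihood fit over all 18 libraries, Benjamini-Hochberg adjustment over all genes tested, threshold 0.05. Scaled CPM are counts relative to the TMM-corrected library size. Log2 CPM for correlations used a prior count of 2. The code was tested on simulated data. Precision is limited by 3 libraries a group (common biological coefficient of variation 0.0644). Alternatives were DESeq2 (1.42.0) size factors, its Wald test, the call rule in the study's methods (unadjusted p under 0.05 and an absolute log2 change over 0.5), fits limited to the compared groups, omission of the low-count filter, a stricter minimum of 10 counts per library, a block for the replicate number, and each library left out. The study's methods state that call rule beside a comparison of senescent cells with and without an inhibitor, which is not among these groups. Library totals alone and limma on log2(TPM + 1) were added after seeing the data.

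The members and the lists were chosen with earlier results of these data known. The 7 members are always named, with the 3 genes closest to each by correlation. From each list, genes among the 3 highest or 3 lowest called log2 changes of a comparison may be named. Lists are described by counts, and not every called gene is named. A gene used to check the labels is not reported here. The share of the CCCP change regained was planned and is not given, because the size of that change depended on the scaling. Promoter sequences are from RefSeq (GRCh38.p14) and gene positions from GENCODE on GRCh38.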

Additional observations from a re-analysis of the deposited data

Results flagged for a closer look

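VLDLR, from the list of plasminogen activation and its regulators, was the only list gene called for the interaction of acetate and mtDNA. It was 1 of 20 genes tested in that list. None was called among 11 other serpins, 24 collagen folding genes and 17 heat shock genes. Of all 16994 genes, 0.0765% were called positive and 0.583% negative. VLDLR, an endocytic receptor that clears activator and inhibitor complexes, had an interaction of acetate and mtDNA of -0.50 ± 0.0927 (log2 ± SE, adjusted p = 0.0115, edgeR quasi-likelihood test). Transfected mtDNA gave a log2 change of 0.38 in depleted cells (adjusted p = 0.000257) and of -0.12 in acetate-treated cells (adjusted p = 0.258). It averaged 25.5 ± 0.576 TPM (SD, n = 3) in Sen (IR) + CCCP, 43.8 ± 1.10 with acetate, 31.6 ± 0.677 with mtDNA and 39.4 ± 6.02 with the combination. The combination libraries were at 43.1, 32.5 and 42.8 TPM, and the low one, replicate 2, stood apart from its group over all genes as well. Without it the interaction was -0.39 (adjusted p = 0.000395). Over 21 alternatives it lay between -0.57 and -0.39 and was called in 19, the exceptions being log2(TPM + 1) (-0.46, adjusted p = 0.0712) and the study's call rule, whose size limit it missed (-0.47).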

How the results depend on the processing

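Under alternatives that kept all libraries, 689 values of single members kept their side of the threshold (25 of them, not called in either fit and at most 0.07 in size under TMM, changed sign), 36 lost a call, 24 gained one and 7 changed sign where one of the fits called them. These 7 were, on log2(TPM + 1), PLAT with mtDNA against Sen (IR) (0.0687), PLAT with CCCP against Prol (0.0471) and, with CCCP against Sen (IR), PLAT (0.0487), PLAU (0.394), PLAUR (0.157) and SERPINH1 (0.0360), and, with library totals alone, PLAU with CCCP (0.22). The median shift of all genes given above moved with them. On log2(TPM + 1) the members called were 2 with CCCP (main 6), 3 with mtDNA against Sen (IR) (main 6) and 1 with mtDNA against Sen (IR) + CCCP (main 2), and no other list gene had an interaction. By the study's call rule, which asks for a larger change, members called fell to 2 with CCCP and 0 with mtDNA, and against Sen (IR) to 3 with acetate, 1 with mtDNA and 3 with the combination. It left 8 of 35 neighbour pairs differing (main 17), and of the other list genes 24 in Sen (IR) against Prol (main 48), 25 with acetate (52), 4 with mtDNA (15), 28 with the combination (51), 40 against Sen (IR) (62), 28 against mtDNA alone (55), 1 against acetate alone (8) and 0 for the interaction (1). For the combination against acetate alone, 1 member (PLAU) was called with DESeq2 size factors, the Wald test and no filter, and list genes called were 14 without the filter and 13 with totals alone. For the interaction, 1 member (PLAU) was called without the filter, and list genes called were 5 without it, 2 by the Wald test and 2 with only the groups compared; with mtDNA, 23 list genes were called with only the groups compared. The cause of these changes was not tested. The order of groups in TMM-scaled CPM was that in TPM for 1 of 7 members.

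Same-numbered libraries of different groups showed no shared deviation (45 pairs, r from -0.08 to 0.09), and 8 of 18 libraries were closest to their own number. With 3 libraries a group this cannot exclude that the numbers pair them. With the replicate number as a block, PLAU was called between the combination and acetate alone (1 member, log2 0.18, adjusted p = 0.0493), and 2 list genes had an interaction.

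Leaving out 1 library moved the members called with mtDNA between 1 and 3 (1 without mtDNA replicate 2, 3 without mtDNA replicate 1). List genes called between the combination and acetate alone ranged from 3 (without acetate replicate 3) to 7, and those with an interaction from 1 to 3. The fall of SERPINF1 in the combination against Sen (IR) (-0.46, adjusted p = 0.0166) was lost without Sen (IR) replicate 2 (adjusted p = 0.135) or combination replicate 1 (0.141) or 3 (0.0615). PLAUR passed between the combination and mtDNA alone without combination replicate 2 (adjusted p = 0.00435) or mtDNA replicate 2 (0.032). SERPINF1, at 35 to 59 counts in some groups, is the member most limited by depth.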
